A study of Mus musculus with 10 samples.

Results

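Genes of the motile cilium, the beating organelle that moves mucus along the airway surface, were described in RNA of whole lung from female wildtype BALB/c mice aged 8 to 9 weeks. A group of 3 mice received HDM (house dust mite extract of Dermatophagoides pteronyssinus) and nafamostat, a group of 3 received HDM, and a group of 4 received PBS. HDM was instilled into the nose 2 times per week for 3 weeks at a dose of 10 µg in 30 µl, and PBS mice were instilled with PBS alone. These units are those of the methods, and the labels print mg and ml in their place. Figure legends of the study give a longer period than the 3 weeks of its methods. Nafamostat, an inhibitor of serine proteases, was injected into the peritoneum at 20 mg/kg in PBS with 3% acetic acid, 30 minutes ahead of every instillation, and whether HDM or PBS mice were given this vehicle is not stated in the labels. Lungs were taken 24 h after the last instillation, RNA was taken from the upper portion of the left lobe, and each library came from 1 mouse, so that the p-values below measure the spread between mice together with that of sampling and library preparation. The methods name separate experiments as the source of the lung pieces. Which experiment each library came from is not given, so a difference between experiments cannot be told apart from the rest. The AmpliSeq panel amplifies 1 stretch per gene and its reads are what was counted, so levels are compared between groups for a gene and not between genes. Members were chosen by name: rows named Dnah, Dnaic, Dnal, Rsph, Tekt, Spag or Ift with a number, plus Foxj1 and Lrrc46, with 30 or more counts over all 10 libraries. Of 23930 targets, 57 matched by name and 49 reached this minimum, and Dnah14, Dnah17, Rsph6a, Spag1, Spag4, Spag6, Spag11b and Spag16 did not. All 49 members passed the filter on low counts in each of the 3 comparisons.

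An axoneme is a cylinder of doublet microtubules around a central pair. Outer and inner dynein arms, each built from heavy, intermediate and light chains, slide the doublets against each other, radial spokes pass signals from the central pair to the arms, and tektins run along the doublet wall. Intraflagellar transport (IFT) carries these parts in and out of the cilium on trains made of a pair of complexes, of which IFT-B, with kinesin, moves toward the tip and IFT-A, with cytoplasmic dynein, back to the base. Foxj1 is the transcription factor that switches on the motile cilium programme in airway multiciliated cells. The members by these roles were 13 dynein heavy chains, 2 intermediate chains, 3 light chains, 4 radial spoke genes, 5 tektins, 3 axonemal Spag genes, 3 IFT-A genes, 11 IFT-B genes, Foxj1, Lrrc46, and 3 Spag genes (Spag5, Spag7 and Spag9) whose products work outside the cilium. The name rule therefore gathers genes of several cell types, and IFT genes also serve the single primary cilium of other lung cells.

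Total counts per library were 8053532 to 9666354 with HDM+Nafamostat, 7105946 to 9354416 with HDM and 5901279 to 7353792 with PBS. Levels are given as CPM, in which read counts are made comparable between libraries by TMM (trimmed mean of M values). Some libraries stood apart by their olfactory receptor genes, whose counts summed to 37.5, 416 and 28.3 CPM in the HDM+Nafamostat libraries 1 to 3, 137, 250 and 1649 CPM in the HDM libraries, and 257, 619, 52.1 and 65.0 CPM in the PBS libraries. Liver genes also set libraries apart, with a sum of 0.76, 86.3 and 1.16 CPM in the HDM+Nafamostat libraries, 70.1, 148 and 25.7 CPM in the HDM libraries and 0.49, 8.86, 24.8 and 12.3 CPM in the PBS libraries, and 5 of the 6 tested rose with HDM against PBS (median log2 fold change 2.69). The part of either list in the results for the members was not tested. Results that changed when HDM+Nafamostat library 2, HDM library 3 and PBS library 2 were left out together are given below. The summed level of the 49 members was close in the groups, at 1368 to 1382 CPM with HDM+Nafamostat, 1267 to 1345 CPM with HDM and 1235 to 1371 CPM with PBS. This total does not stand for each role, since roles moved in opposite directions. IFT-B genes summed to 531 to 601 CPM with HDM and 411 to 430 CPM with PBS. Dynein heavy chains summed to 85.1 to 138 CPM with HDM and 105 to 231 CPM with PBS. Alveolar epithelial genes, which check the tissue, summed to 30544 to 37909 CPM with HDM+Nafamostat, 33548 to 44064 CPM with HDM and 25244 to 39806 CPM with PBS, and testis germ cell genes, listed since many axoneme genes are also active in sperm, to at most 9.68 CPM in any library.

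In HDM lungs, dynein heavy chains were 6 of the 8 members that fell when all libraries were used. They were 2 of 4 without PBS library 2 or without PBS library 3, 2 of 6 without HDM library 1, 3 of 5 without HDM library 3, and 2 of 8 with the trend over transcript length removed, and of all genes with transcripts as long (over 10000 bases) 38.3% fell. Against PBS, 8 of the 49 members fell at an adjusted p under 0.05 (edgeR's quasi-likelihood test with Benjamini-Hochberg adjustment over all genes), where 14.2% of the 14608 genes tested fell, and 3 rose, where 15.3% of all genes rose. The share of members that fell was thus close to that of all genes. At a change of at least 2-fold, 3 members fell, where 4.1% of all genes fell, and 2 rose, where 7.28% rose. By role the calls of this fit were uneven, with 6 of 13 heavy chains, Ift172 and Lrrc46 lower and Ift20, Ift74 and Spag5 higher. Of the 17 intermediate chain, light chain, radial spoke, tektin and axonemal Spag genes, 0 passed the adjusted p in this fit or by DESeq2. At an unadjusted p under 0.05 in edgeR, 6 of these 17 were lower. Shares of all genes given beside calls, here and below, are for the adjusted p. None was counted for the unadjusted p, so counts at that threshold have no share to set them against. Some of the 17 passed as lower in other fits. These were Dnal1 and Dnal4 with library totals only, Dnali1 without a count filter, and Dnal4, Rsph9 and Tekt1 with the length trend removed. With a single library left out, Dnal1, Dnal4, Dnali1 or Dnaic1 passed in some fits. The median log2 fold change was −0.25 over the 49 members and −0.74 over the 13 heavy chains, beside 0.02 over all genes. In whole tissue, fewer ciliated cells and less RNA per cell cannot be told apart.

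Dnah5, the outer arm heavy chain in which mutations are a leading cause of primary ciliary dyskinesia, had 12.3, 19.7 and 11.4 CPM in HDM libraries, against 29.9, 33.8, 52.0 and 19.7 CPM in PBS libraries. The groups met but did not overlap, with HDM library 2 and PBS library 4 almost level, and the log2 fold change was −1.26 ± 0.29 (SE, adjusted p = 0.0038 in edgeR). Dnah6, an inner arm heavy chain, had 8.91, 10.6 and 4.77 CPM in HDM libraries, against 20.9, 23.5, 27.0 and 11.98 CPM in PBS libraries. Every HDM library was below every PBS library, and its log2 fold change of −1.39 ± 0.30 was the most negative among the members (adjusted p = 0.0025 in edgeR). The outer arm heavy chain Dnah9 had 6.59, 14.99 and 12.6 CPM with HDM, against 16.7, 23.8, 28.6 and 13.9 CPM with PBS, and its log2 fold change was −0.90 ± 0.29 (adjusted p = 0.029 in edgeR). PBS library 4 lay inside the HDM range, as it did for the next 3 genes. Dnah11, also of the outer arm, had 2.43, 5.23 and 4.51 CPM with HDM, against 6.54, 10.8, 9.22 and 5.20 CPM with PBS, a log2 fold change of −0.999 ± 0.34 (adjusted p = 0.037 in edgeR). Dnah10, of an inner arm, had 3.59, 5.09 and 3.32 CPM with HDM, against 6.05, 8.86, 12.03 and 4.57 CPM with PBS, a log2 fold change of −1.01 ± 0.35 (adjusted p = 0.0385 in edgeR). Dnah3, another inner arm chain, had 8.21, 12.7 and 11.4 CPM with HDM, against 16.7, 19.0, 18.6 and 11.8 CPM with PBS, a log2 fold change of −0.64 ± 0.23 (adjusted p = 0.043 in edgeR).

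The other 7 heavy chains did not pass the test. Their log2 fold changes ran from −1.07 ± 0.58 for Dnah2 to 0.57 for Dnah7c, and Dnah8, best known from sperm, had 0.28 ± 0.24. Dnah7a, Dnah7b and Dnah7c are near-identical copies, so reads may be split between them and their values are uncertain. Exons of Dnah1, Dnah2, Dnah3, Dnah6, Dnah8, Dnah9, Dnah10 and Dnah11 also overlap a gene on the opposite strand in the annotation, and whether the counting used strand is not given in the sources used here.

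**Figure D1:**
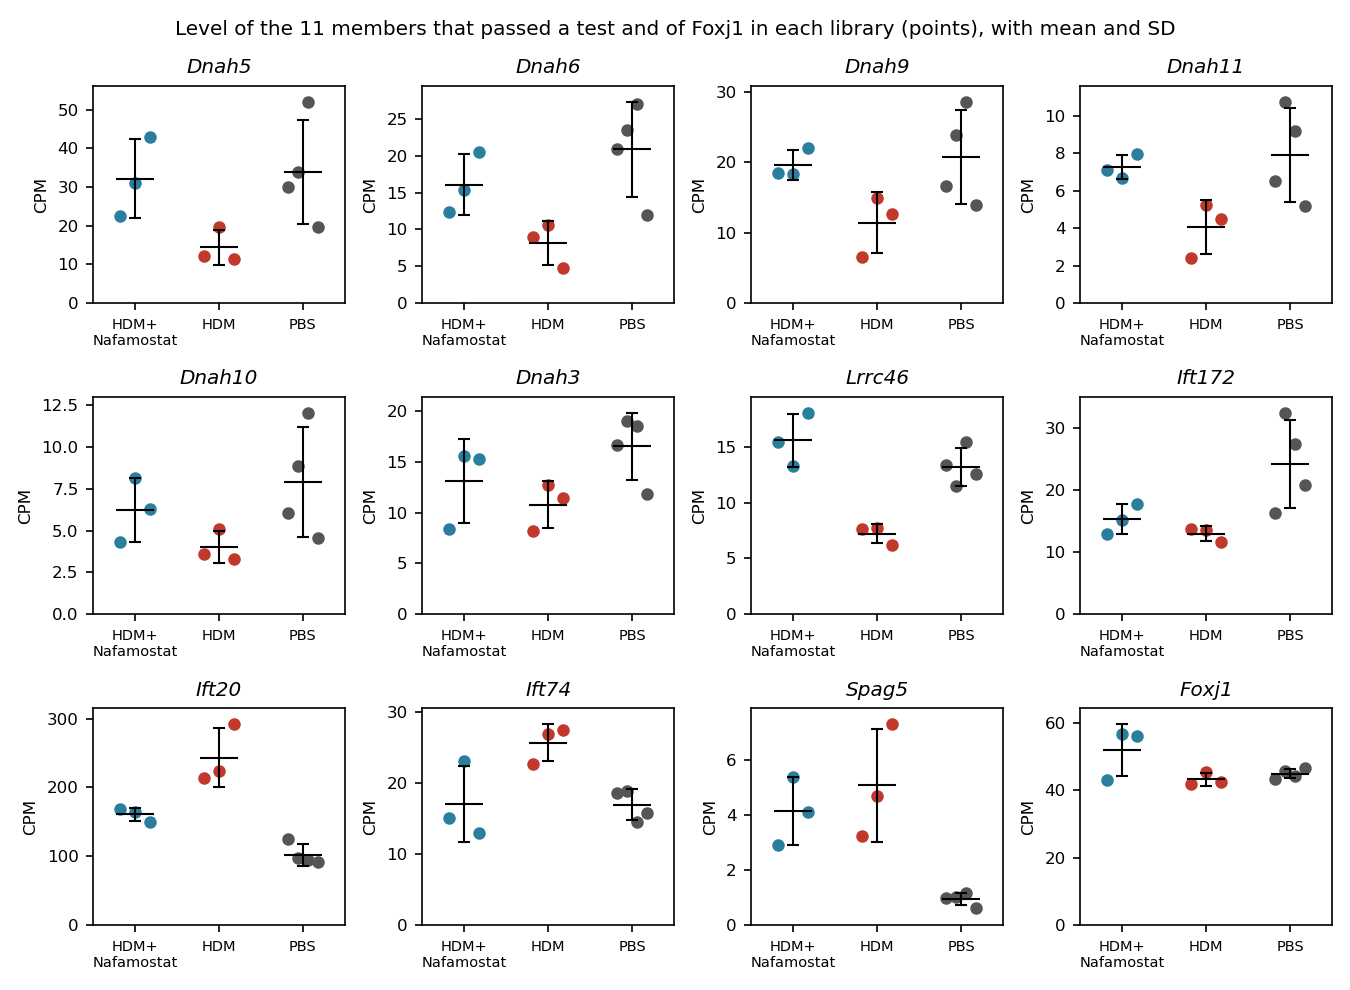
Level in CPM (y axis, from 0) of the 11 members that passed a test in some comparison and of Foxj1, by group (x axis), with 1 point per library, the mean as a horizontal bar and the SD as an error bar. The 3 HDM points lie below every PBS point for Dnah5, Dnah6, Lrrc46 and Ift172 and above every PBS point for Ift20, Ift74 and Spag5, while the Foxj1 points of HDM and PBS lie between 41.9 and 46.5 CPM.

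Among the other roles, Lrrc46, which encodes a leucine-rich repeat protein of cilia and sperm flagella, had 7.63, 7.78 and 6.23 CPM in HDM libraries, against 13.4, 11.5, 15.5 and 12.6 CPM in PBS libraries. The groups were well apart, and the log2 fold change was −0.89 ± 0.21 (adjusted p = 0.0052 in edgeR). Ift172, a large IFT-B subunit, had 13.6, 13.6 and 11.5 CPM with HDM, against 16.3, 32.4, 27.4 and 20.8 CPM with PBS, a log2 fold change of −0.93 ± 0.23 (adjusted p = 0.0061 in edgeR). Ift20, a small IFT-B subunit that also sits at the Golgi apparatus, went the other way, with 213, 223 and 292 CPM in HDM libraries, against 125, 97.3, 94.2 and 91.1 CPM in PBS libraries. HDM library 3 was the highest, no HDM library came near the PBS range, and the log2 fold change was 1.24 ± 0.15 (adjusted p = 2.53e-05 in edgeR). Ift74, which binds tubulin together with Ift81, had 22.7, 26.9 and 27.5 CPM with HDM, against 18.6, 18.9, 14.5 and 15.8 CPM with PBS, a log2 fold change of 0.58 ± 0.17 (adjusted p = 0.019 in edgeR). Thus 2 of the 11 IFT-B genes rose and 1 fell, and 0 of the 3 IFT-A genes passed (also 0 at an unadjusted p under 0.05 in edgeR, and 0 by DESeq2). The IFT-A gene Ift43 had 107, 113 and 89.5 CPM with HDM, against 120.3, 120.3, 101 and 113 CPM with PBS.

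Foxj1 itself did not pass, at 41.9, 45.4 and 42.4 CPM in HDM libraries and 43.3, 45.6, 44.3 and 46.5 CPM in PBS libraries. Its log2 fold change was −0.07 ± 0.13, and the ranges of the groups overlapped. The remaining axonemal genes had mostly small negative values without passing. Log2 fold changes ran from −0.62 to −0.38 in the 5 intermediate and light chains (Dnaic1, Dnaic2, Dnal1, Dnal4 and Dnali1), from −0.40 to 0.22 in the radial spoke genes, from −0.69 to 0.74 in the tektins and from −0.24 to −0.06 in the axonemal Spag genes. Dnal1, an outer arm light chain, came nearest to the threshold, with 25.0, 22.9 and 20.0 CPM in HDM libraries, against 24.8, 32.3, 36.6 and 30.0 CPM in PBS libraries (log2 fold change −0.47 ± 0.17, adjusted p = 0.055 in edgeR). For most members the ranges of HDM and PBS libraries overlapped, while 7 members had every HDM library below every PBS library, where 17.2% of all genes did, and 3 had every HDM library above, where 19.3% of all genes did.

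The genes with the highest mean CPM in each remaining role gave the following values. Dnaic1, an outer arm intermediate chain, had 10.2, 9.68 and 12.5 CPM with HDM+Nafamostat, 5.20, 11.5 and 5.17 CPM with HDM and 11.8, 10.5, 11.01 and 10.7 CPM with PBS, so that HDM library 2 stood with the PBS libraries and the other 2 HDM libraries far below. Its partner Dnaic2 had 17.7, 12.2 and 15.6 CPM with HDM+Nafamostat, 9.95, 12.2 and 10.5 CPM with HDM and 15.5, 18.4, 11.5 and 13.7 CPM with PBS, and every HDM library was below every HDM+Nafamostat library. Dnali1, an inner arm light chain, had 45.5, 44.7 and 45.7 CPM with HDM+Nafamostat, 39.8, 41.3 and 15.6 CPM with HDM and 50.8, 53.0, 53.4 and 38.2 CPM with PBS, with HDM library 3 far below all others. Rsph4a, of the radial spoke head, had 19.7, 16.7 and 17.96 CPM with HDM+Nafamostat, 13.9, 14.4 and 13.7 CPM with HDM and 15.5, 22.2, 19.3 and 15.8 CPM with PBS, and the HDM libraries were the 3 lowest of the 10. Rsph9, of the same spoke head, overlapped between all groups, at 14.2, 10.9 and 12.8 CPM with HDM+Nafamostat, 14.1, 10.9 and 11.5 CPM with HDM and 13.4, 12.6, 15.9 and 17.7 CPM with PBS. Tekt1 had 20.8, 20.9 and 21.0 CPM with HDM, and PBS library 3, at 20.7 CPM, reached this level, while the other PBS libraries had 23.7 to 27.7 CPM. Dnah8, the heavy chain known from sperm, had 26.0, 26.7 and 26.9 CPM with HDM+Nafamostat, 20.4, 33.9 and 25.3 CPM with HDM and 17.3, 19.5, 32.8 and 16.4 CPM with PBS, with PBS library 3 near the top. Tekt2 had 10.5, 15.2 and 14.8 CPM with HDM+Nafamostat, 12.3, 9.19 and 13.1 CPM with HDM and 16.3, 17.3, 13.2 and 9.46 CPM with PBS, and Dnal4, an outer arm light chain, had 49.3, 42.6 and 46.6 CPM with HDM+Nafamostat, 44.1, 35.3 and 32.4 CPM with HDM and 40.0, 50.4, 54.4 and 47.1 CPM with PBS. Both overlapped between HDM and PBS, as did the central pair genes. Spag6l, a near copy of Spag6 and so uncertain, had 13.1, 11.4 and 8.93 CPM with HDM+Nafamostat, 9.72, 12.9 and 15.3 CPM with HDM and 13.1, 15.5, 14.2 and 14.5 CPM with PBS. Spag17 had 9.65, 11.7 and 9.45 CPM with HDM+Nafamostat, 6.13, 10.2 and 4.91 CPM with HDM and 8.33, 6.97, 11.1 and 6.31 CPM with PBS. Ift46 and Ift140 overlapped between HDM and PBS as well. Ift140 and Ift46 were above the PBS range in every HDM+Nafamostat library, at 21.8 to 32.7 CPM against 15.3 to 21.6 CPM and at 84.1 to 103 CPM against 66.4 to 80.6 CPM, and neither passed the test (adjusted p = 0.092 and 0.17 in edgeR).

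Spag5, the mitotic spindle protein astrin, had the largest rise of the members, with 3.24, 4.67 and 7.29 CPM in HDM libraries, against 0.98, 1.02, 1.15 and 0.63 CPM in PBS libraries. The log2 fold change was 2.37 ± 0.46 (adjusted p = 0.0012 in edgeR). Genes of cell division rose with it: 10 of the 11 tested genes of a proliferation list were higher, with a summed level of 238 to 366 CPM with HDM and 57.7 to 112 CPM with PBS. Spag7, at 117 to 140.1 CPM with HDM and 119 to 126 CPM with PBS, and Spag9, at 74.8 to 101 CPM with HDM and 85.0 to 95.2 CPM with PBS, a scaffold protein of kinase signalling and vesicle transport, had log2 fold changes of 0.01 and −0.04 and did not pass.

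**Figure D2:**
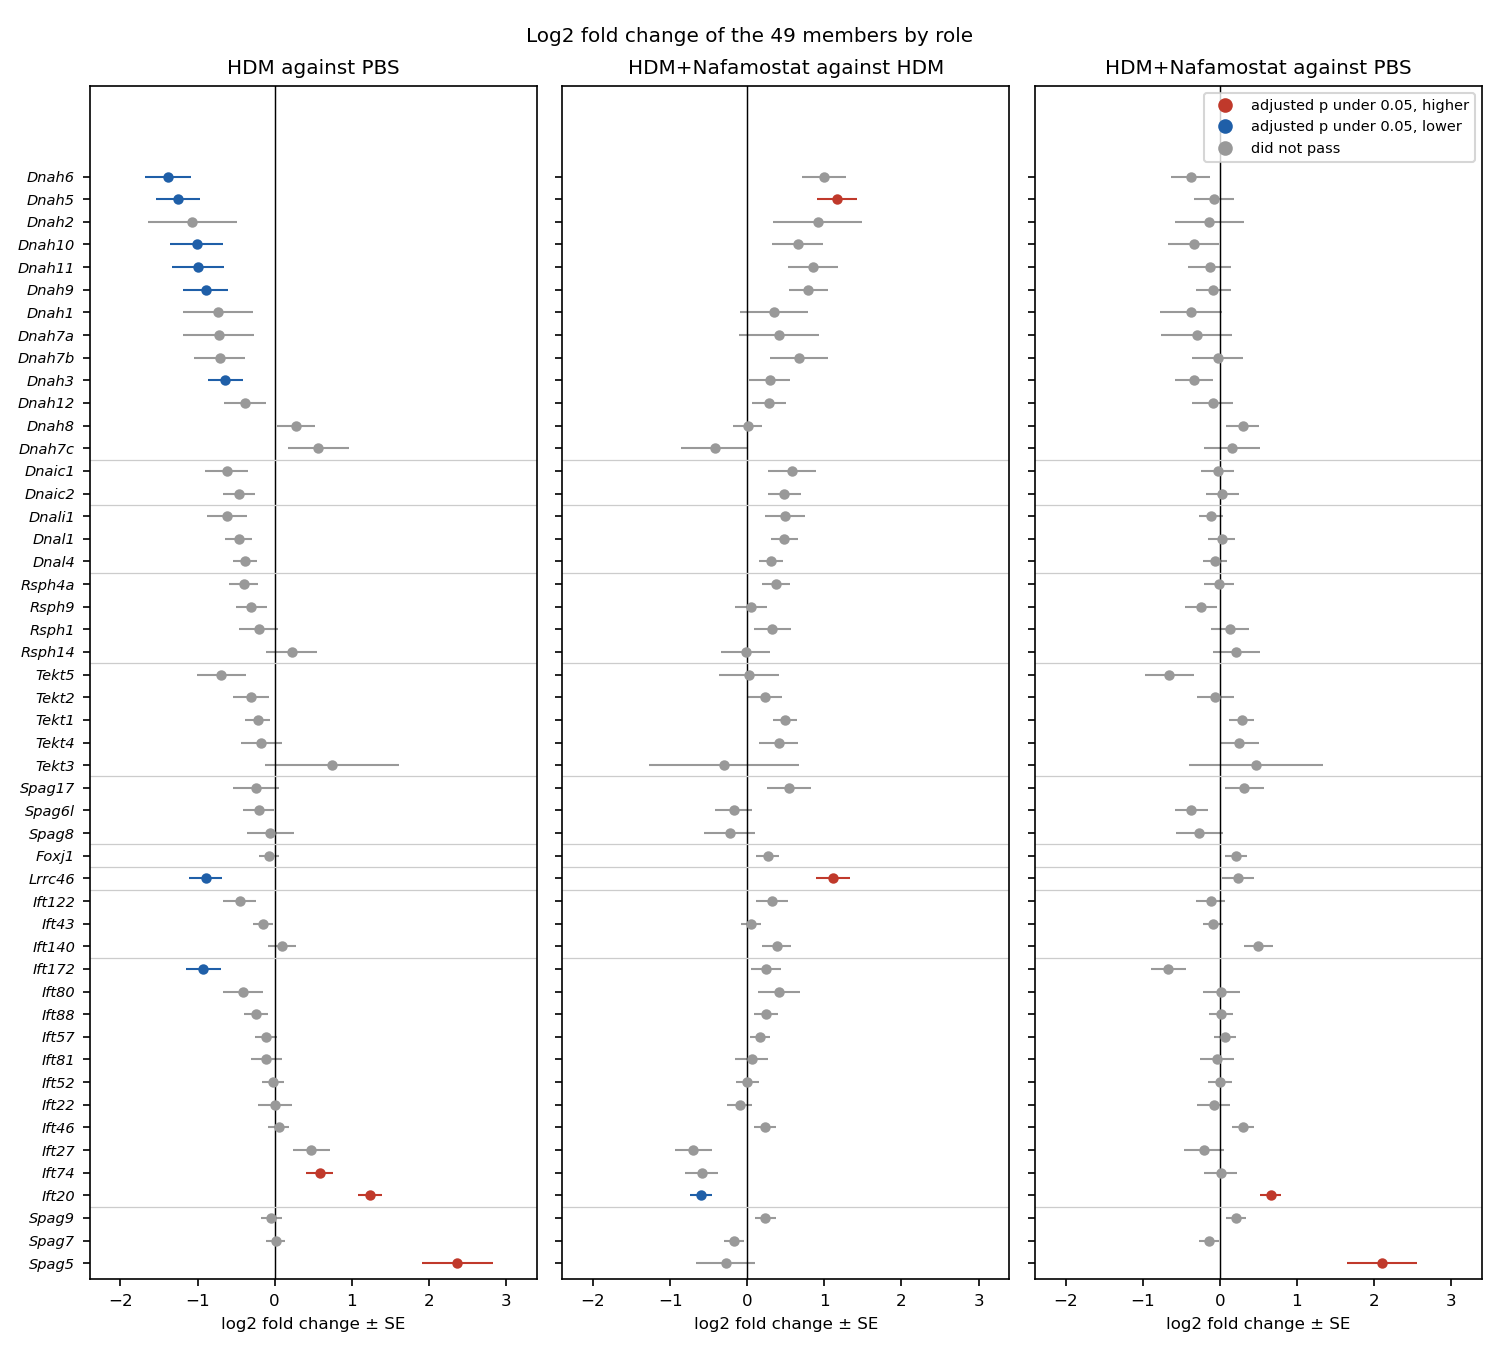
Log2 fold change (x axis) with its SE for the 49 members (y axis, grouped by role and ordered within a role by HDM against PBS) in the 3 comparisons, with members past the adjusted p of 0.05 in red (higher) or blue (lower). The heavy chains at the top extend to −1.39 in HDM against PBS, where 6 of 13 passed, and in HDM+Nafamostat against HDM 2 members passed as higher and 1 as lower.

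The length of the transcript moved with these fold changes. Across the 13369 tested genes with an annotated protein-coding transcript, Spearman's correlation of the log2 fold change, HDM against PBS, with transcript length was −0.35, and across the 49 members it was −0.45. Without the heavy chains, it was −0.12 across the other 36 members. Genes are not independent replicates, and the correlation is a description. The median log2 fold change was 0.52 for the 663 genes with transcripts of up to 1000 bases and −0.45 for the 326 genes over 10000 bases. All 13 heavy chains are among the genes over 10000 bases, with transcripts of 12009 to 16685 bases, and 38.3% of those 326 genes fell, beside 6 of the 13 heavy chains. Genes over 10000 bases took 1.71%, 1.78% and 1.88% of the counts in HDM+Nafamostat libraries, 1.34%, 1.54% and 1.26% in HDM libraries and 2.21%, 2.37%, 2.56% and 1.78% in PBS libraries. Among PBS libraries, library 4 was the lowest for this share and for 13 of 13 heavy chains, and library 3 was the highest for this share and for 10 of 13. Among HDM libraries, library 2 was the highest for this share and for 12 of 13.

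With the length trend removed in each library, an alternative added after the values had been seen, 8 members again passed as lower, of which 4 were shared. Lrrc46 (log2 fold change −1.18), Dnah6 (−0.93), Dnah5 (−0.73) and Ift172 (−0.71) remained, Dnah3, Dnah9, Dnah10 and Dnah11 no longer passed, and Dnal4, Ift43, Rsph9 and Tekt1 passed. Lrrc46, whose transcript has 1336 bases, belongs to the class of over 1000 and up to 2000 bases, in which 7.06% of genes fell and 25.4% rose. Ift20 (0.88) and Spag5 (2.47) also remained, Ift74 did not pass, and Dnah8 (0.81) passed as higher. What sets the relation with length, and its part in the heavy chain result, was not tested.

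**Figure D3:**
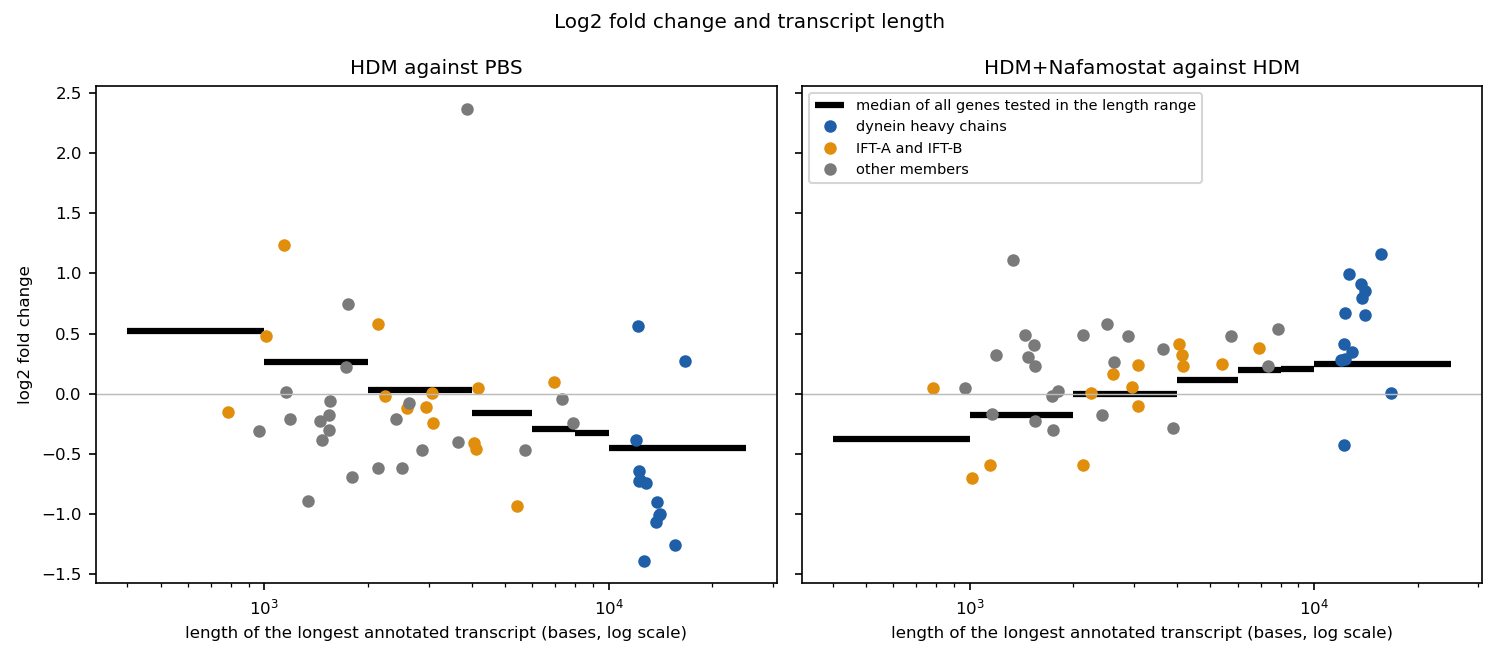
Log2 fold change (y axis) against the length of the longest annotated transcript in bases (x axis, log scale) for the 49 members, with heavy chains in blue, IFT genes in orange and other members in grey, and black bars at the median of all genes tested in each length range. The bars descend with length to −0.45 in HDM against PBS and climb to 0.25 in HDM+Nafamostat against HDM, and most heavy chains lie beyond the bar of their range.

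Some of the calls did not pass with a single library left out. Without PBS library 2, and likewise without PBS library 3, 4 members passed as lower (Dnah5, Dnah6, Ift172 and Lrrc46). Without HDM library 3 there were 5, and without HDM library 1 Dnah3, Dnah9, Dnah10 and Dnah11 did not pass. In these fits 1722, 1772, 1434 and 1642 genes of the whole panel fell, beside 2069 with all libraries. Log2 fold changes were −1.09 (Dnah11), −0.90 (Dnah10) and −0.685 (Dnah3) without HDM library 3. Without HDM library 1 they were −0.72 (Dnah11), −0.93 (Dnah10), −0.61 (Dnah9) and −0.47 (Dnah3). Whether a lost call reflects the library or the smaller fit was not tested. Without the 3 libraries with the most olfactory receptor counts, Dnah5, Dnah6 and Lrrc46 passed as lower and Ift20 and Spag5 as higher. The members that no longer passed in this smaller fit had log2 fold changes of −0.90 (Dnah9), −0.90 (Dnah11), −0.83 (Dnah10), −0.61 (Dnah3), −0.68 (Ift172) and 0.59 (Ift74), and Ift172 was the furthest from its value over all libraries.

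To show the regions upstream of the members that the results turn on, the 250 bases before the RefSeq start site on GRCm38.p6 are printed for the pair of most changed heavy chains, for Ift172 and Ift20, which moved in opposite directions, and for Dnah10, in capitals where the letters GTTGCC occur on the shown strand. On GRCm38 the genes are at chr15:28203752-28472052 (Dnah5), chr6:73017606-73221651 (Dnah6), chr5:124725085-124834308 (Dnah10), chr5:31253277-31291116 (Ift172) and chr11:78536361-78541737 (Ift20), and Lrrc46, for which no promoter is printed, is at chr11:97034602-97041407. The letters GTTGCC are part of the motif bound by RFX factors, which act with Foxj1 on ciliary genes.
Dnah5, chr15:28203516-28203765, plus strand: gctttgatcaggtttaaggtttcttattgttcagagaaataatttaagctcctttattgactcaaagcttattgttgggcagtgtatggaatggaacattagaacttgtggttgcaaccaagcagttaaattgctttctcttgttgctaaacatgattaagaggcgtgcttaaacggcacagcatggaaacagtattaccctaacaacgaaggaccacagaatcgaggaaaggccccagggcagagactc
Dnah6, chr6:73221632-73221881, minus strand: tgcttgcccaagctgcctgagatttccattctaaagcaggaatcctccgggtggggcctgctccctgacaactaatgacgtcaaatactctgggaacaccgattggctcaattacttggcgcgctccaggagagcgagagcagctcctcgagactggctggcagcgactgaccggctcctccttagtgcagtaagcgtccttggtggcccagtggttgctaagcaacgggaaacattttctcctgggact
Dnah10, chr5:124724835-124725084, plus strand: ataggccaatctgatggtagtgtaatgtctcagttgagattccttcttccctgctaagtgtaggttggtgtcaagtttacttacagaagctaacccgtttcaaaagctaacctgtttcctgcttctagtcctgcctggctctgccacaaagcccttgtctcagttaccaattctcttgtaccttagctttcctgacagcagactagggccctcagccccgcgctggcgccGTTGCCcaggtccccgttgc
Ift172, chr5:31291115-31291364, minus strand: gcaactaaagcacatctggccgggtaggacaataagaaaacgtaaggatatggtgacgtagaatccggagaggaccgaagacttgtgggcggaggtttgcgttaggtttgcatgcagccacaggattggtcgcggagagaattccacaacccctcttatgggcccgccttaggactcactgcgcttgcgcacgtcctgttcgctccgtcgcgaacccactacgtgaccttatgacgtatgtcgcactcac
Ift20, chr11:78536111-78536360, plus strand: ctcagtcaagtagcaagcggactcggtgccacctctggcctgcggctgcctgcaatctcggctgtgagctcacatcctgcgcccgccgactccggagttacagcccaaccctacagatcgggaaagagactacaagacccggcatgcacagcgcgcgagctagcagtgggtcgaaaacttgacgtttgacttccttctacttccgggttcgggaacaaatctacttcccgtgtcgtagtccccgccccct
Of these 5, only the Dnah10 window held GTTGCC, 20 bases before the start. The Dnah6 window held gttgctaagcaac, which a search for the exact letters GTTGCC does not count. Other forms of the RFX motif were not searched, so a window without GTTGCC is not shown to lack an RFX site. A promoter entry was found for 41 of the 49 members, and 10 of them (24.4%) held GTTGCC on either strand within 250 bases before a start site, where 11.8% of 27025 genes did. The 10 were Dnah10, Dnah7a, Dnah7b, Dnah7c, Dnaic2, Ift140, Ift27, Ift57, Tekt1 and Tekt2, of which Dnah10 alone passed the test for HDM against PBS, and the Dnah7 genes share much of their sequence. The forkhead letters TGTTTAC, searched in the same way, occurred for 1 of 41 members (Tekt3, 2.44%) and for 3.54% of all genes. A match describes letters in a window and shows no binding.

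With HDM+Nafamostat against HDM, 2 members rose, where 0.951% of the 14413 genes tested rose, and 1 fell, where 1.97% fell. Members were chosen with earlier results of these data known, Lrrc46 by its own name, so these counts are a description. Nafamostat mice also received injections of the vehicle, and the methods list HDM with and without vehicle as separate groups. The labels do not say which of these the HDM libraries came from, so inhibitor, vehicle and injection cannot be told apart. This comparison and the previous one share the HDM libraries, so any deviation of the HDM libraries enters both. Lrrc46 had 15.5, 13.3 and 18.1 CPM with HDM+Nafamostat, against 7.63, 7.78 and 6.23 CPM with HDM, a log2 fold change of 1.11 ± 0.22 (adjusted p = 0.020 in edgeR). Dnah5 had 22.6, 31.0 and 43.0 CPM with HDM+Nafamostat, against 12.3, 19.7 and 11.4 CPM with HDM, a log2 fold change of 1.16 ± 0.26 (adjusted p = 0.030 in edgeR). Ift20 had 169, 164 and 150.2 CPM with HDM+Nafamostat, against 213, 223 and 292 CPM with HDM, a log2 fold change of −0.59 ± 0.14 (adjusted p = 0.042 in edgeR). Of these, 2 changes upward were at least 2-fold, where 0.104% of all genes rose by as much, and 0 downward, where 0.729% fell by as much. In all 3 genes the HDM+Nafamostat libraries lay wholly to one side of the HDM libraries.

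The other heavy chains did not pass in this fit, but their values lay mostly above 0. The median log2 fold change was 0.65 over the 13, beside 0.28 over all members and −0.01 over all genes. DESeq2 also passed Dnah6 as higher, and the fit without a count filter passed Dnah6 and Dnah9. Dnah6 had 12.3, 15.4 and 20.5 CPM with HDM+Nafamostat, against 8.91, 10.6 and 4.77 CPM with HDM (log2 fold change 0.99 ± 0.29, adjusted p = 0.072 in edgeR). Dnah9 had 18.4, 18.4 and 22.1 CPM with HDM+Nafamostat, against 6.59, 14.99 and 12.6 CPM with HDM (log2 fold change 0.79 ± 0.26, adjusted p = 0.099 in edgeR). Tekt1, the tektin with the highest mean CPM, had 27.9, 31.2 and 28.9 CPM with HDM+Nafamostat, against 20.8, 20.9 and 21.0 CPM with HDM (log2 fold change 0.49 ± 0.16, adjusted p = 0.093 in edgeR). These 3 genes did not overlap between the groups. In all, 12 members had every HDM+Nafamostat library above every HDM library, where 12.6% of all genes did, and 3 (Ift20, Ift27 and Spag7) had every one below, where 12.9% did.

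Foxj1 had 43.2, 56.7 and 56.2 CPM with HDM+Nafamostat, against 41.9, 45.4 and 42.4 CPM with HDM, and its log2 fold change of 0.27 ± 0.15 did not pass. Spag5 stayed within the HDM range in 2 libraries, at 2.92, 5.39 and 4.10 CPM with HDM+Nafamostat, against 3.24, 4.67 and 7.29 CPM with HDM (log2 fold change −0.28 ± 0.38). Ift172 had 12.95, 15.2 and 17.7 CPM with HDM+Nafamostat, against 13.6, 13.6 and 11.5 CPM with HDM (log2 fold change 0.25 ± 0.20). Neither passed the test.

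Length moved with this comparison too. The median log2 fold change was 0.25 in the 324 genes over 10000 bases, of which 2.78% rose, and −0.38 in the 637 genes of up to 1000 bases, of which 10.4% fell. With the length trend removed, Lrrc46 passed (log2 fold change 1.30, adjusted p = 0.019 in edgeR), while Dnah5 (0.92, adjusted p = 0.061) and Ift20 (−0.35, adjusted p = 0.16) did not. Without HDM library 1, without HDM library 3 or without HDM+Nafamostat library 3, 0 members passed as higher, and Ift20 did not pass in any fit that left out 1 library. In these 3 fits the log2 fold changes were 1.15, 1.02 and 0.99 for Lrrc46 and 1.05, 1.02 and 0.90 for Dnah5, and the genes that passed as higher over the whole panel numbered 12, 23 and 1, beside 137 with all libraries. For Ift20 the log2 fold change ran from −0.69 to −0.44 over the fits that left out 1 library.

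**Figure D4:**
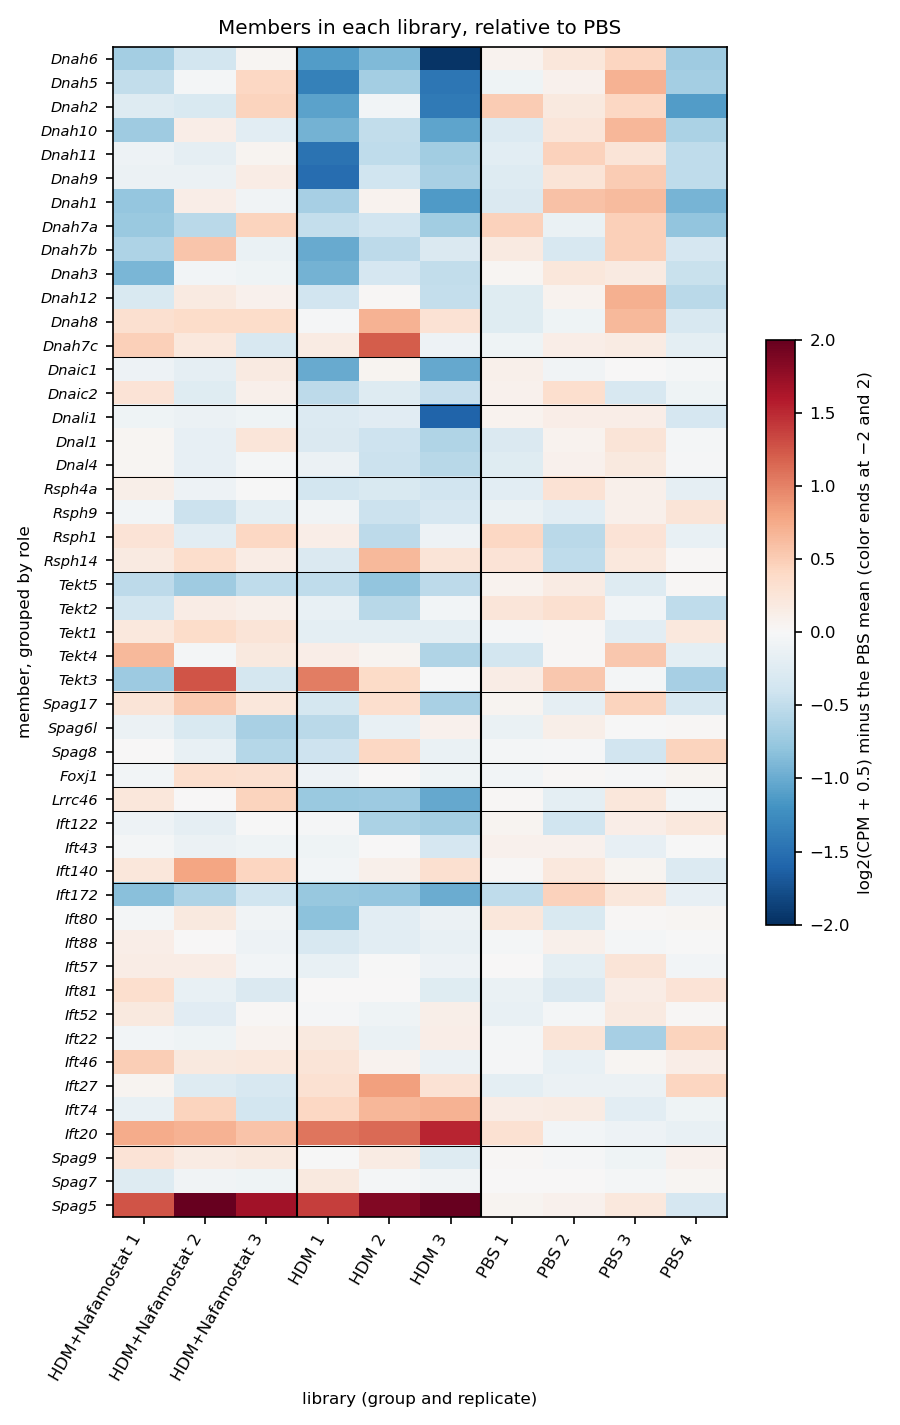
Log2 of CPM plus 0.5 minus the PBS mean (color, ending at −2 and 2) for the 49 members (y axis, grouped by role) in the 10 libraries (x axis). HDM libraries 1 and 3 hold the bluest cells of the upper heavy chain rows, PBS library 4 is blue for these rows as well, and the Spag5 and Ift20 rows are red in all HDM and HDM+Nafamostat libraries.

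With HDM+Nafamostat against PBS, 2 members rose, where 8.73% of the 14079 genes tested rose, and 0 fell, where 5.53% fell. Ift20 was at 169, 164 and 150.2 CPM with HDM+Nafamostat, against 125, 97.3, 94.2 and 91.1 CPM with PBS (log2 fold change 0.66 ± 0.14, adjusted p = 0.0041 in edgeR). Spag5 was at 2.92, 5.39 and 4.10 CPM with HDM+Nafamostat, against 0.98, 1.02, 1.15 and 0.63 CPM with PBS (log2 fold change 2.10 ± 0.45, adjusted p = 0.0039 in edgeR). By at least 2-fold 1 rose, where 4.62% of all genes did, and 0 fell, where 1.14% did. Both genes were above the PBS range in 3 of 3 HDM+Nafamostat libraries. At an unadjusted p under 0.05, 1 member was lower in edgeR, and DESeq2 called 1 member lower at its adjusted p, which was Ift172. Ift172 had 12.95, 15.2 and 17.7 CPM with HDM+Nafamostat, against 16.3, 32.4, 27.4 and 20.8 CPM with PBS (log2 fold change −0.67 ± 0.23, adjusted p = 0.057 in edgeR). The median log2 fold change was −0.03 over the members and −0.13 over the heavy chains, beside −0.01 over all genes. Dnah5 (−0.08 ± 0.26), Dnah6 (−0.38 ± 0.25) and Lrrc46 (0.23 ± 0.20) did not pass, and these SE leave room for changes in either direction. Tekt1, at 27.9, 31.2 and 28.9 CPM with HDM+Nafamostat against 23.7, 24.3, 20.7 and 27.7 CPM with PBS, was 1 of 6 members with no overlap upward, where 13.7% of all genes had none, and 2 had none downward, where 10.4% of all genes had none. Without the 3 libraries with the most olfactory receptor counts, 0 members passed as higher, with log2 fold changes of 0.62 for Ift20 and 1.90 for Spag5.

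Genes of the same structures that the name rule does not catch were counted for HDM against PBS from a fixed list. Of 42 axoneme and dynein assembly genes tested, 0 rose and 6 fell at the adjusted p, where 15.3% and 14.2% of all genes did. At an unadjusted p under 0.05 in edgeR, for which no share of all genes was counted, 0 were higher and 12 lower. The 6 past the adjusted p were Hydin and Cfap54, both of the central pair, Drc1 and Gas8, of the regulatory complex that links neighbouring doublets, Ccdc113, and the adenylate kinase Ak7. Their log2 fold changes ran from −1.24 ± 0.33 for Hydin to −0.66 ± 0.21 for Ccdc113 (adjusted p = 0.0097 and 0.029 in edgeR), and the median over the 42 was −0.33. With HDM+Nafamostat against HDM, 1 of 41 rose, which was Ak7 (log2 fold change 0.82 ± 0.19, adjusted p = 0.037 in edgeR), and the median was 0.39. Of 26 BBSome and transport genes under other names, 6 fell and 2 rose with HDM, where 14.2% and 15.3% of all genes did. At an unadjusted p under 0.05 in edgeR, 10 of the 26 were lower and 2 higher. Dync2h1, the heavy chain of the dynein that drives IFT toward the base, fell (log2 fold change −0.98 ± 0.20, adjusted p = 0.0020 in edgeR), and the BBSome gene Bbs5 rose (1.13 ± 0.28, adjusted p = 0.0065 in edgeR).

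Markers of the cells that carry these genes, and of their neighbours, moved as well. The counts below for HDM stand beside 14.2% of all genes that fell and 15.3% that rose with HDM against PBS. Of 16 further markers of multiciliated cells tested, 3 fell with HDM (Tppp3, log2 fold change −0.998 ± 0.14, Sec14l3, −0.86 ± 0.13, and Cdhr3, −0.69 ± 0.18) and 3 rose (Sntn, 0.52 ± 0.17, Ccdc153, 0.43 ± 0.13, and Ccdc78, 0.68 ± 0.23). Over the 16, 8 log2 fold changes were above 0 and 8 below, with a median of −0.02. The summed level of the 17 on the panel was 2584 to 3131 CPM with HDM+Nafamostat, 2254 to 2541 CPM with HDM and 3240 to 3711 CPM with PBS. A sum weighs genes by their level, so it need not move with the median. Of 9 tested regulators of multiciliated cell formation, Myb and Trp73 fell and E2f5 and Tfdp1 rose, the last 2 also being cell cycle genes. Club cell genes, of the secretory cells beside ciliated cells, fell in 7 of 9 cases and rose in 1 with HDM, with summed levels of 31627 to 41787 CPM with HDM+Nafamostat, 28005 to 31584 CPM with HDM and 47977 to 54158 CPM with PBS. All 8 goblet cell genes rose with HDM, with summed levels of 4041 to 4799 CPM with HDM+Nafamostat, 3064 to 4268 CPM with HDM and 57.5 to 76.4 CPM with PBS. Of 10 basal and general airway epithelial genes, Cdh1 and Krt19 fell, Elf3 rose and 7 did not pass with HDM, with summed levels of 956 to 1102 CPM with HDM+Nafamostat, 826 to 829.8 CPM with HDM and 977 to 1108 CPM with PBS, so that the HDM libraries overlapped with neither of the other groups. With HDM+Nafamostat against HDM, 9 of these 10 genes had log2 fold changes above 0, and 0 passed (2 at an unadjusted p under 0.05 in edgeR). Leukocyte genes rose in 8 of 11 cases, to 11850 to 18590 CPM with HDM, beside 9858 to 11910 CPM with HDM+Nafamostat and 6937 to 11581 CPM with PBS. No gene of these lists on the panel was at 0 in all libraries, and the part of these cells in the changes of the members was not tested.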

How the data were processed

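Lung RNA of 10 mice was amplified by the authors with the Ion AmpliSeq Transcriptome Mouse kit and sequenced on an Ion S5 XL. The deposited files hold raw counts per amplicon, on build mm10 per the labels; the methods name normalized values of the Torrent Suite, whereas the deposited values are whole numbers with unequal totals, 5901279 to 9666354 per library. Aligner and counter settings are not given in the sources used here, and intervals are not derived from depth. In 27 rows a spreadsheet had turned the symbol into a date, which was restored from the amplicon name.

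Members were taken by symbol with at least 30 counts over the 10 libraries, and every member may be named, with values per library for those that passed a test, for Foxj1 and Lrrc46 and, per role, for the 2 genes with the highest mean CPM, a few of them by range. Members and lists were chosen with earlier results of these data known. For each comparison edgeR 4.0.16 under R 4.3.3 was fitted to the libraries of its 2 groups alone (TMM factors, quasi-likelihood F test, at least 30 counts summed over the comparison, Benjamini-Hochberg over all genes, threshold 0.05), where the study used DESeq2 and a 2-fold minimum, which are alternatives here (DESeq2 1.42.0). SE were derived from the F statistic. On simulated counts, the test found 92% of genes changed 3-fold and 99% changed 6-fold for HDM against PBS, 83% and 91% for HDM+Nafamostat against HDM, and 94% and 99% for HDM+Nafamostat against PBS. The genes changed there had a mean of at least 10 counts per library. Changes under 3-fold, which all members that passed except Spag5 had, were not simulated, so these shares do not apply to them. Positions, transcript lengths (longest protein-coding transcript) and overlaps came from GENCODE vM21 and promoters from RefSeq, both on GRCm38, the assembly also called mm10. Further alternatives were other scalings, no filter, edgeR's filterByExpr, one fit of 3 groups, the replicate number as a block, each library left out, the length trend removed and 3 libraries left out, the last 2 added after the data were seen.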

Additional observations from a re-analysis of the deposited data

Results flagged for a closer look

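Among the 4 PBS libraries, 72 sets of values (the 49 members, their roles and the marker lists) were searched for a library far from the others, and 3 were found, where chance gives about 1 in 20. Ift27, a small GTPase of the IFT-B complex, was at 11.82 CPM in PBS library 4, against 7.516 to 7.99 CPM in the other 3. Dnali1 was at 38.15 CPM in the same library, against 50.82 to 53.39 CPM in the others. The summed testis germ cell genes were at 4.939 CPM in PBS library 2, against 1.576 to 2.124 CPM in the others.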

How the results depend on the processing

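For HDM against PBS, 8 members passed as lower; this count was 3 at a 2-fold minimum, 3 without the 3 libraries with the most olfactory receptor counts, 7 in DESeq2, 10 with library totals only and 4 to 9 with single libraries left out, and the 3 higher became 2 to 4. For HDM+Nafamostat against HDM, the 2 higher became 3 in DESeq2, 4 without a count filter and 1 with the length trend removed. They became 1 without the 3 libraries and 0 to 2 with single libraries left out. The 1 lower became 0 with library totals only, with the length trend removed, without the 3 libraries and at a 2-fold minimum. It became 0 to 1 with single libraries left out. The median log2 fold change of the members in that comparison, 0.279, was 0.192 without the 3 libraries and 0.198 to 0.303 with single libraries left out. For HDM+Nafamostat against PBS, the 2 higher became 4 with the length trend removed, 0 without the 3 libraries and 1 at a 2-fold minimum. The 0 lower became 1 with library totals only, in DESeq2, without a filter and in one fit of 3 groups, and 0 to 1 with single libraries left out, and the median, −0.028, was −0.083 with library totals only. Except where the alternative itself tests fewer libraries or asks for more, the cause was not tested. Over 2290 values of single members under alternatives, 2208 stayed on the same side of the threshold, 53 no longer passed, 29 newly passed and 0 changed sign past the threshold. Of the 2208, 154 turned the sign of the log2 fold change, none of which passed in either fit.

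Replicate numbers did not clearly pair the libraries: same-numbered libraries correlated at −0.314 to −0.074, −0.296 to 0.081 and 0.011 to 0.175 in the 3 comparisons, and 0, 0 and 2 of 3 numbers correlated best with their own. So few libraries cannot show that pairing is absent. Some libraries with different numbers correlated more, HDM library 3 with PBS library 2 at 0.407 and HDM+Nafamostat library 2 with HDM library 3 at 0.395. These 3 had the most olfactory receptor counts of their groups, and what they share was not tested. With the replicate number as a block, 9 members were lower and 3 higher for HDM against PBS, 0 higher and 0 lower for HDM+Nafamostat against HDM, and 2 higher and 2 lower for HDM+Nafamostat against PBS. With 3 or 4 libraries a group, a change that misses the threshold is not shown to be absent, and several members (Tekt3, Dnah2, Dnah7a) had few counts.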
